A study of Mus musculus with 12 samples.

Results

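miR-210 was followed through 12 small RNA libraries, which pair a colon with a blood sample in each of 6 mice. Its entries in the table of mature miRNAs are miR-210-3p and miR-210-5p (listed there as mmu-mir-210-3p and mmu-mir-210-5p), the 3p and 5p arms of the Mir210 hairpin, which are 2 of 1978 entries. Both arms were chosen by their measured difference between mice with colitis and control mice, which was not the same in blood and in colon. Their values in that contrast are therefore given as a description without a test. Tests are kept for measures that the choice did not use directly. After the filter on low counts both arms were tested in colon and only miR-210-3p in blood.

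All mice were wild type C57BL/6 males, 8 weeks old when obtained. The DSS-UC group (3 mice, called DSS mice here) had dextran sulfate sodium, a polysaccharide that injures the colon epithelium and causes acute colitis, at 1.5% (wt/vol) in the drinking water for 7 days. The control group (3 mice) had the same water without DSS, and all mice were sacrificed on day 8. This is an acute model, and each library is a mixture of the cells of whole colon tissue or whole blood. Colon and blood RNA were isolated with different kits, so an effect of the kit and an effect of the tissue cannot be told apart.

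The grouping of the mice needs care. The library names in the study's figures make mice 1, 7 and 9 the DSS mice and mice 2, 4 and 8 the controls, and this grouping chose miR-210 and is used here. The disease state labels instead give colitis to mice 1, 2 and 4 and make mice 7, 8 and 9 controls. Under these labels the colon difference of miR-210-3p turned from -1.15 to 0.28 on the log2 scale. The difference between the tissues' responses turned from 1.86 to -0.21. The paper itself lists miR-210-3p among the downregulated miRNAs of the colon, which is the direction under the grouping used here. The source and tissue labels also name opposite tissues for every library. The tissue was settled by the library names, and the erythroid markers miR-451a, miR-144-3p, miR-144-5p, miR-486a-5p and miR-486b-5p took 76.3% to 83.9% of all counts in the libraries called blood and 0.283% to 0.501% in those called colon. Total counts, summed over all entries, were 15060553 to 20106226 per colon library and 21127134 to 32944792 per blood library. The blood totals exceed the miRNA-mapped reads per sample that the paper reports, so totals are not read depth.

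miR-210 is the best known miRNA of the response to low oxygen. Its gene is switched on by hypoxia-inducible factor (HIF), and the 3p arm is the usual guide strand that is loaded onto Argonaute to repress messages of mitochondrial iron-sulfur cluster assembly (ISCU) and other genes. The 5p arm is the strand that mostly decays after the hairpin is cut. In the gut, the surface epithelium lives at low oxygen even in health, and inflamed mucosa can become more hypoxic.

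The sequences of the arms are shown because the counts rest on matches to them, with the seed (bases 2 to 8 from the 5′ end, which pair with target messages) in capitals. They come from RefSeq (GRCm38.p6), where both arms were found.
miR-210-3p: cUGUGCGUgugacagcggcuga
miR-210-5p: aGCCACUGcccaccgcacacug
The 3p arm lies at chr7:141221407-141221428 and the 5p arm at chr7:141221445-141221466, both on the minus strand. None of the 1405 table entries with a sequence shared the seed of either arm, and the entry nearest in sequence to each arm differed by 7 single-base edits. The other entries of the table were not compared. Of those compared only miR-147-3p, named here after its values were seen, shared bases 2 to 7 of the 3p arm. Its difference in colon did not pass the test (log2 fold change -0.39, SE 0.32, edgeR adjusted p = 0.426).

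The hairpin is shown to place both arms, which are in capitals with the 5p arm first.
Mir210: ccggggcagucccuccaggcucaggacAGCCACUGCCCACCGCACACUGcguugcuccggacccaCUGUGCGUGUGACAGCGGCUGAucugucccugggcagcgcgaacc
It occupies chr7:141221384-141221493 (110 bases, minus strand) between genes, and the nearest annotated genes are Rassf7 at 2725 bp, Phrf1 at 7290 bp and Lmntd2 at 7303 bp. The arms are joined by 16 loop bases and share 16 base pairs in the predicted fold of lowest free energy (-48.0 kcal/mol). The hairpin is rich in G and C at 69.1%, above 96.7% of 1005 mouse hairpins, whose median is 51.7%. The 3p arm holds 63.6% and the 5p arm 68.2%, beside a median of 52.2% over mature miRNAs.

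miR-210-3p was well above the counting limit in every library, with 458 to 1417 counts in colon and 681 to 2836 in blood. By mean level it ranked 155 of 1140 entries with counts in control colon and 194 of 1204 in DSS colon. In blood it ranked 112 of 1000 in controls and 98 of 1052 in DSS mice. It was therefore a miRNA of middle to high abundance in each group. miR-210-5p ranked 342 and 438 in control and DSS colon and 598 and 519 in control and DSS blood.

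In colon, miR-210-3p was lower in the DSS mice. Levels are given as CPM, counts scaled to library size with TMM factors within a tissue. DSS mice 1, 7 and 9 had 33.0, 25.8 and 40.3 CPM (mean 33.0 ± 7.21, SD, n = 3). Control mice 2, 4 and 8 had 56.4, 85.6 and 77.8 CPM (73.2 ± 15.1, n = 3). The groups did not overlap, and the highest DSS mouse, mouse 9, lay below the lowest control, mouse 2. The log2 fold change (DSS over control) was -1.15 (SE 0.23), a 2.22-fold lower level. These values chose the miRNA and have no test here. A miRNA is called significantly differentially expressed (SDE) where its adjusted p does not exceed 0.05 and it changed more than 1.5-fold. By this rule, which for miR-210 describes the values that chose it and supports nothing, 1 of the 2 arms fell under the SDE and lower miRNAs of the colon. Of the 542 miRNAs tested there 10.1% were SDE, with 4.24% SDE and lower and 5.9% SDE and higher. These shares depended on the scaling, since 55 miRNAs were SDE with TMM, 16 with RLE and 8 with upper-quartile factors. Without mouse 2, 4, 7 or 8, or with all libraries in 1 fit, 0 miRNAs of the colon were SDE, miR-210-3p included. In 16.1% of the 542 the DSS mice lay wholly below the controls and in 22.5% wholly above.

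miR-210-5p in colon was low and uneven. DSS mice 1, 7 and 9 had 0.502, 2.09 and 1.59 CPM from 7, 37 and 41 counts. Control mice 2, 4 and 8 had 1.87, 2.17 and 6.71 CPM from 28, 36 and 107 counts. The groups overlapped, since DSS mouse 7 lay above control mouse 2. Control mouse 8 stood far above the rest. The log2 fold change was -1.34 (SE 0.64), and without mouse 8 it was -0.53. In bulk tissue, fewer cells that make a miRNA and less of it per cell cannot be told apart.

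In blood, miR-210-3p went the other way, by a smaller step. DSS mice 1, 7 and 9 had 71.4, 37.7 and 53.2 CPM (54.1 ± 16.9, n = 3), and control mice 2, 4 and 8 had 36.7, 39.2 and 48.4 CPM (41.5 ± 6.18, n = 3). The groups overlapped, with DSS mouse 7 below 2 controls. The log2 fold change was 0.38 (SE 0.28), and it was 0.18 without mouse 1, 0.65 without mouse 7 and 0.63 with total counts. With factors over all 12 libraries it was 0.66 and the groups did not overlap, with DSS mice at 54.4 to 100.4 CPM and controls at 41.9 to 52.0 CPM. In blood 0 of 484 miRNAs were SDE by edgeR (0%), with 56 at an unadjusted p under 0.05 and 10 SDE by DESeq2.

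miR-210-5p in blood was near the limit of counting. It had 12, 9 and 6 counts in DSS mice 1, 7 and 9, or 0.302, 0.290 and 0.277 CPM. Control mice 2, 4 and 8 had 5, 2 and 5 counts, or 0.225, 0.115 and 0.170 CPM. All DSS mice lay above all controls, as did those of 7.44% of the miRNAs tested in blood, among which this arm was not. The exact 95% Poisson intervals of the counts overlapped, the lower bound of the highest DSS library (6.20) lying under the upper bound of the lowest control (7.22), and the arm did not pass the filter on low counts in blood. These intervals cover counting error only.

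**Figure D1:**
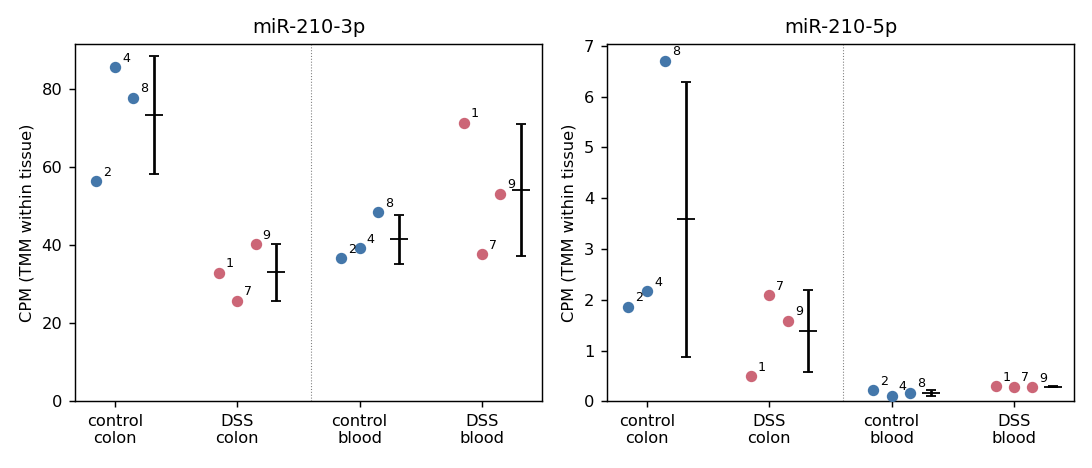
Levels of miR-210-3p (left) and miR-210-5p (right) in CPM scaled within each tissue, on linear axes from 0, by group. Points are single mice with their numbers and bars are the mean ± SD (n = 3). The colon groups are apart for miR-210-3p, with DSS mice at 25.8 to 40.3 and controls at 56.4 to 85.6, and the right panel shows the high 5p value of control mouse 8 (6.71).

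Set side by side, the response of miR-210-3p was -1.15 in colon and 0.38 in blood. Fitted over all 12 libraries, the response in blood minus the response in colon was 1.86 on the log2 scale (SE 0.50), and 1.45 with RLE factors. For miR-210-5p it was 2.38 (SE 0.89). The direction of these differences was what chose miR-210. Without mouse 1, whose blood library was the highest, the difference for miR-210-3p was 1.42.

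**Figure D2:**
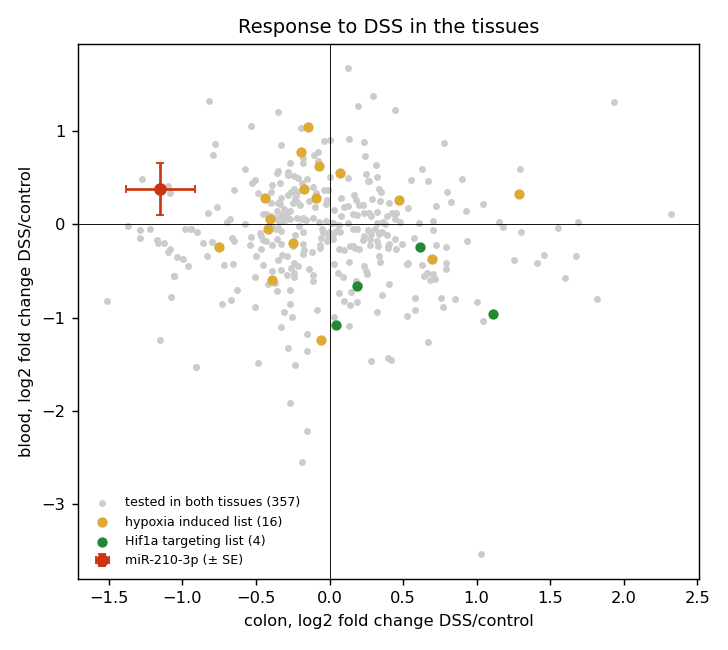
Log2 fold change (DSS over control) in colon on the x axis and in blood on the y axis for the 357 miRNAs tested in both tissues. The red point is miR-210-3p with its SE at -1.15 and 0.38, among the grey points of the upper left, and the yellow and green points are the lists of miRNAs induced by hypoxia (16) and targeting Hif1a (4).

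Markers of cell types moved in the same colon libraries. The 9 epithelial markers (miR-192-5p, miR-194-5p, miR-215-5p, the miR-200 family members and miR-375-3p) took 15.9% to 19.1% of all counts in control colon and 7.15% to 12.6% in DSS colon. Of them 4 were SDE and lower (4.24% of all miRNAs tested were), 7 lay wholly below the controls (16.1% of all did), and their median log2 fold change was -1.08, against 0.04 for all. The 4 myeloid markers, the arms of miR-223 and miR-142a, took 0.0241% to 0.0355% in control colon and 0.0341% to 0.144% in DSS colon, and 2 of them were SDE and higher, beside 5.9% of all. The 4 smooth muscle markers took 26.2% to 32.7% in control and 32.3% to 36.4% in DSS colon, but with TMM factors their median log2 fold change was -0.35, and 0 were SDE by edgeR. No marker in these lists was at 0 in every library. The lymphocyte markers took 0.156% to 0.172% in control and 0.150% to 0.212% in DSS colon, with 0 SDE by edgeR.

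In blood the erythroid markers took 76.3% to 83.9% of all counts in controls and 77.0% to 81.4% in DSS mice. The lymphocyte markers took 0.0143% to 0.0258% in controls and 0.0229% to 0.0361% in DSS mice. By edgeR 0 of 26 markers tested in blood were SDE, with 6 (23.1%) at an unadjusted p under 0.05, against 11.6% of all miRNAs tested. By DESeq2 3 (11.5%) were SDE, against 2.07% of all, namely the liver marker miR-122-5p, the myeloid marker miR-223-3p and the epithelial marker miR-215-5p. miR-122-5p was at 98.4 ± 88.1 CPM in controls and 8.41 ± 2.10 in DSS mice, which lay wholly below (log2 fold change -3.55, SE 0.76, edgeR adjusted p = 0.165). miR-223-3p was at 11.0 ± 1.30 and 27.2 ± 9.65 CPM (1.31, SE 0.29, edgeR adjusted p = 0.165), while miR-223-5p was at -0.80, miR-142a-3p at -0.58 and miR-142a-5p at 0.22 on the log2 scale. The median of the 4 myeloid markers in blood was -0.18, against -0.05 for all miRNAs tested. The part of these cell types in the values of miR-210 was not tested.

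The mean difference between the tissues over DSS and control mice, weighted equally, was tested for miR-210-3p. It is uncorrelated with the difference in response that chose miR-210 only where DSS and control mice vary alike. This was not tested, and the SDs below differ between the groups. The p-value may therefore not be wholly free of the choice. The tissue difference within control mice is a part of the chosen quantity and is a description. For these comparisons all 12 libraries were scaled together. For miR-210-3p the group means were 70.6 ± 25.8 CPM in DSS blood, 60.5 ± 11.5 in control colon, 46.2 ± 5.23 in control blood and 27.6 ± 6.92 in DSS colon (n = 3 each). In this order the first 3 groups each overlapped their neighbour, with ranges of 54.4 to 100.4, 47.7 to 69.9 and 41.9 to 52.0 CPM. Only DSS colon (21.2 to 35.0 CPM) lay below its neighbour without overlap.

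Averaged over DSS and control mice, the log2 difference of miR-210-3p (blood minus colon) was 0.72 (SE 0.25, edgeR adjusted p = 0.0123). It was -0.0063 with total counts and 1.91 with upper-quartile factors. It was 0.50 without mouse 1 (adjusted p = 0.0581) and 0.44 without mouse 8 (adjusted p = 0.129). The difference of miR-210-3p between the tissues thus depended on the scaling and on single mice. In control mice alone it was -0.19 (SE 0.31), and from -0.77 with total counts to 1.32 with upper-quartile factors. The median of all miRNAs tested in control mice was itself at -1.20 with TMM factors and 0.34 with upper-quartile factors.

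miR-210-5p was lower in blood than in colon under each scaling. The order of its means was control colon (2.95 ± 2.21 CPM), DSS colon (1.17 ± 0.679), DSS blood (0.380 ± 0.0717) and control blood (0.190 ± 0.0629). The colon groups overlapped each other and DSS colon reached down to 0.406 CPM in mouse 1, within the range of DSS blood (0.298 to 0.425), while the blood groups were apart. Over all 6 mice the log2 difference (blood minus colon) was -2.53 (SE 0.44), 5.79-fold lower in blood, and -2.80 to -2.33 with 1 mouse left out. This arm passed the filter on low counts only through its colon libraries, so the level difference is given without a p, and at least 10 counts in every library left no value. In control mice it was -3.71 (SE 0.62), 13.1-fold lower, and -2.95 without mouse 8, whose colon value was the highest. The range over the other scalings was -4.27 to -2.22 in controls and -3.28 to -1.37 over all mice. Such a difference is common here. In control mice 88.6% of 603 miRNAs were SDE between the tissues, 52.9% lower and 35.7% higher in blood, and over all mice 88.7% of 680 were, 51% lower and 37.6% higher.

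**Figure D3:**
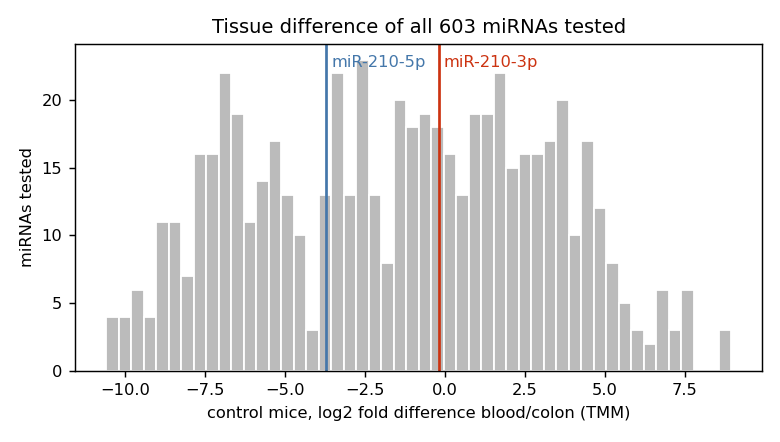
Number of miRNAs (y axis) by log2 difference between blood and colon in control mice (x axis) for the 603 miRNAs tested. Lines mark miR-210-3p at -0.19, near the middle of a broad spread, and miR-210-5p at -3.71.

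The share of the 5p arm differed between the tissues, a measure that needs no scaling since both arms are counted in the same library. In colon the 5p arm was 1.50%, 7.47% and 3.79% of both arms' counts in DSS mice 1, 7 and 9. In control mice 2, 4 and 8 it was 3.20%, 2.48% and 7.94%. In blood it was 0.421%, 0.765% and 0.518% in the DSS mice and 0.608%, 0.293% and 0.349% in the controls. Every colon library lay above every blood library, and DSS and control mice were mixed in both tissues. By exact (Clopper-Pearson) 95% intervals, the lowest share in colon, in mouse 1, had bounds of 0.605% and 3.06%. The highest share in blood, in mouse 7, had bounds of 0.350% and 1.45%, so single libraries at these ends overlap in counting error. Pooled over libraries, the 5p arm was 256 of 5718 counts in colon (4.48%) and 39 of 8121 in blood (0.480%).

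The mean log2 ratio of 5p to 3p counts was -4.68 ± 0.97 in colon and -7.74 ± 0.52 in blood (SD, n = 6). The difference was -3.05, an 8.31-fold lower ratio in blood, with an SD of 0.94 between mice, and it was lower in blood in 6 of 6 mice. An exact two-sided permutation test, which ignores the pairing by mouse, gave p = 0.00216. An exact sign-flip test within mice, which keeps it, gave p = 0.0312. Each is the smallest p that the test allows here, and both rest on 2 to 12 counts of the 5p arm per blood library. In control mice alone the difference was -3.39 and in DSS mice alone -2.72. Leaving out any 1 mouse gave -3.30 to -2.74.

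**Figure D4:**
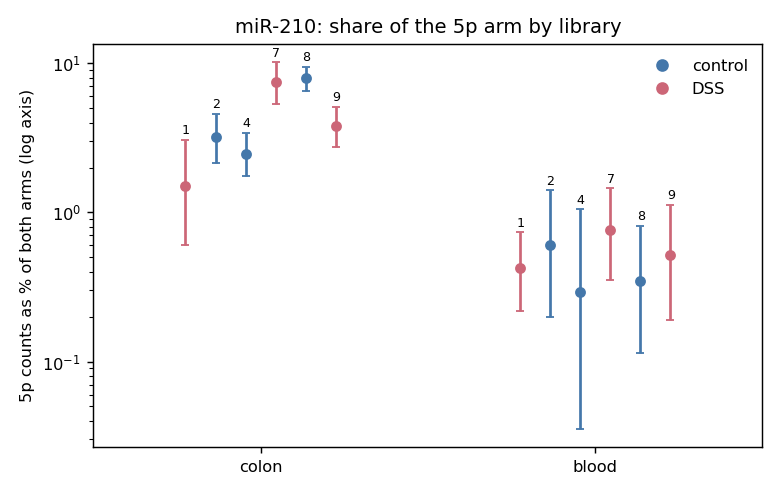
Share of the 5p arm in the counts of both arms of miR-210 (y axis, percent, log axis) in each library, by tissue, with exact 95% intervals and mouse numbers. Colon libraries lie at 1.50% to 7.94% and blood libraries at 0.293% to 0.765%, with DSS mice (red) and controls (blue) mixed.

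Arm ratios that change between blood and colon were found at many hairpins. Among 110 hairpins with at least 100 counts for both arms together in every library, the ratio of the minor to the major arm lay wholly lower in blood in 26.4% and wholly higher in 23.6%. With 1 added to each count, the log2 difference was -2.85 for miR-210, against a median of 0.16, and 52 of 110 hairpins were lower in blood on average. miR-210 ranked 12 from the lowest.

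**Figure D5:**
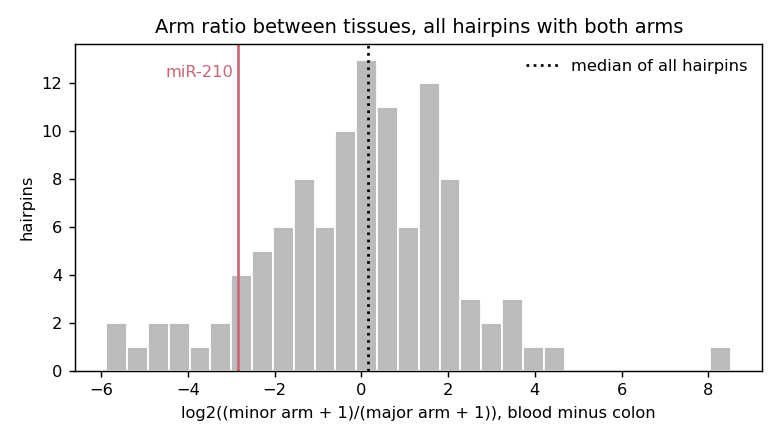
Number of hairpins (y axis) by the log2 difference between blood and colon in the ratio of minor to major arm, with 1 added to each count (x axis), for 110 hairpins. The solid line marks miR-210 at -2.85 and the dotted line the median at 0.16.

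The miRNAs most like miR-210-3p were sought by Pearson's r of log2(CPM + 1). Across the 12 libraries, with each tissue centred on its mean, they were miR-148a-5p (r = 0.91), miR-130b-3p (r = 0.90), miR-25-5p (r = 0.84), miR-1968-5p (r = 0.82) and miR-23b-5p (r = 0.82) among 356 candidates. miR-148a-5p had log2 fold changes with DSS of -1.10 in colon and 0.41 in blood, beside -1.15 and 0.38 for miR-210-3p. miR-130b-3p had -1.22 and -0.05. The other 3 had -0.40 to -0.33 in colon and 0.02 to 0.35 in blood.

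Across the 6 colon libraries alone the most alike of 540 candidates were miR-130b-3p (r = 0.97), miR-130b-5p (r = 0.96), miR-196b-5p (r = 0.95), and miR-467a-5p and miR-467b-5p (r = 0.94 each, with identical values, so the last 2 cannot be told apart). Their log2 fold changes in DSS colon were -1.22 to -0.67. The arms of miR-210 themselves had r = 0.59 over the 6 colon libraries. These libraries share their groups and depth, so such values describe a pattern and carry no p.

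Other miRNAs tied to the hypoxia response were read from lists drawn up from general knowledge, with no source named. A list of 16 miRNAs reported as induced by low oxygen was tested in full in both tissues. In colon edgeR called 1 member SDE with a higher level and 0 with a lower one, beside 5.9% and 4.24% of all miRNAs tested. An unadjusted p under 0.05 was found for 4 of the 16 (25%), against 31.4% of all, and 2 (12.5%) were SDE by DESeq2, against 13.7% of all. In 4 of the 16 the DSS mice lay wholly below the controls and in 3 wholly above, where 16.1% and 22.5% of all did. The list's median log2 fold change was -0.16, against 0.04 for all miRNAs tested, and it turned to 0.06 against 0.26 with total counts. The one that rose was miR-155-5p, a miRNA of activated immune cells, from 10.8 ± 2.04 CPM in controls to 26.4 ± 11.0 in DSS mice (log2 fold change 1.29, SE 0.33, edgeR adjusted p = 0.0491). miR-21a-5p, abundant in inflamed tissue, was at 0.70 (SE 0.22, edgeR adjusted p = 0.0863) and SDE by DESeq2 only.

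Of 4 miRNAs reported to target the Hif1a message, 1 was SDE and higher in colon, beside 5.9% of all miRNAs tested, and 2 had an unadjusted p under 0.05, beside 31.4% of all. miR-199a-5p, found mostly in mesenchymal cells, rose from 1734 ± 143 to 2656 ± 126 CPM (log2 fold change 0.62, SE 0.12, edgeR adjusted p = 0.0431). By DESeq2 0 of the 4 were SDE, against 13.7% of all. The list's median log2 fold change was 0.40, against 0.04 for all, and 2 of 4 lay wholly above the controls, beside 22.5% of all. Both calls were lost with RLE or upper-quartile factors, and without mouse 2, 4, 7, 8 or 9. With total counts miR-155-5p lost its call and miR-199a-5p kept it. The count of SDE miRNAs over the colon table fell from 55 to 0 without mouse 2, 4, 7 or 8.

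In blood 0 of either list were SDE by edgeR or DESeq2, with 4 of 16 and 3 of 4 at an unadjusted p under 0.05, against 11.6% of all miRNAs tested. The induced list had a median log2 fold change of 0.27 in blood, against -0.05 for all miRNAs tested. Of its members 6 lay wholly above the controls and 1 wholly below, where 7.44% and 9.92% of all did. These are not separate observations, since the list holds related miRNAs such as miR-181a-5p, miR-181b-5p and miR-181c-5p. miR-181a-5p is also among the lymphocyte markers. The Hif1a list had a median of -0.81, with 3 of 4 wholly below the controls. These 3, miR-17-5p (-0.66), miR-20a-5p (-1.08) and miR-20b-5p (-0.96), are related and not separate observations. The fourth, miR-199a-5p, was at -0.24. The medians kept these signs under the other scalings. miR-20a-5p went from 62.8 ± 16.3 to 29.6 ± 8.70 CPM (log2 fold change -1.08, SE 0.30, edgeR adjusted p = 0.246) and miR-181c-5p from 2.16 ± 0.632 to 4.50 ± 1.99 CPM (1.05, SE 0.37, edgeR adjusted p = 0.360). These 2 were named after their values were seen, as the largest differences but for miR-26b-5p (-1.24).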

How the data were processed

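Small RNA of colon and blood from 6 mice was analysed. The authors trimmed reads with Flexbar, collapsed them with fastx-toolkit and counted them on mature mouse miRNAs of miRBase (22) with the quantifier of miRDeep2 (2.0.1.0), and deposited the counts. They also deposited a normalized signal per tissue, in which DESeq2 (1.22.2) size factors scale each library's counts, used here only in an alternative. 0 per-sample columns were left out. No molecular identifiers are named in the sources used here, so intervals cover counting error only. The total counts above are sums over entries and not read depth.

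Counts were fitted in R (4.3.3) with edgeR (4.0.16): filterByExpr, TMM factors, glmQLFit and glmQLFTest, with Benjamini-Hochberg adjustment over all miRNAs tested. Each tissue was fitted alone and without covariates for DSS against control. Control libraries, and all 12 libraries with 4 groups, were fitted for blood against colon, the first as a description. The SE was taken as the absolute log2 fold change over the root of its F statistic. Positions and neighbouring genes are from RefSeq and GENCODE (M21) on GRCm38, and folds from ViennaRNA (2.7.2). Figures were drawn in Python (3.11.15).

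Replicates are separate mice. Colon and blood of a mouse share its number, so the libraries are paired by animal. The deviations of a mouse's blood and colon libraries from their group means had r of -0.29 to 0.16 over 357 miRNAs. Alternatives were RLE or upper-quartile factors, total counts, no filter, at least 10 counts in every library, each sequence counted once, DESeq2 (1.42.0), limma (3.58.1) on log2(signal + 1), all libraries in 1 fit, the mouse as block, each mouse left out, and the labels' grouping. The fits were also run on simulated counts as a check of the code. The outcome is not given here and supports none of the results.

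Named miRNAs were both arms, entries sharing their seed, the 5 most correlated with miR-210-3p over 12 and over 6 colon libraries, and SDE members of the hypoxia lists, with markers by list. miR-147-3p, miR-21a-5p, miR-20a-5p, miR-181c-5p and miR-26b-5p are not covered by this rule and were picked once their values were known. The members and lists were chosen with earlier results of these data known.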

Additional observations from a re-analysis of the deposited data

Results flagged for a closer look

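Of 10 sets of 6 libraries examined (both arms on both scales and their log2 ratio, in each tissue), 3 had 1 library far from the others, by a gap whose share of the whole range passed Dixon's 95% limit, which chance gives in about 1 set in 20. Each of these sets joins DSS and control mice. miR-210-5p in colon had a gap of 0.731 of its range on either scale (0.7305 with factors within the tissue and 0.7314 with factors over all libraries), because control mouse 8 had 6.71 CPM and the next library, control mouse 4, had 2.17. miR-210-3p in blood had a gap of 0.739 of its range with factors over all libraries, because DSS mouse 1 had 100.4 CPM and the next, DSS mouse 9, had 57.2. With factors within the tissue the gap of mouse 1 was 0.525, under the limit. The sets at each scale hold the same counts and are not independent.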

How the results depend on the processing

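miR-210-3p in colon stayed lower under each alternative but the labels' grouping (0.28), the arm ratio kept its direction and call, and the tissue difference of miR-210-5p its direction, under every alternative run on them. At least 10 counts in every library left no value for miR-210-5p. The cause of the changes below was not tested.

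The response difference of miR-210-3p (1.86) was 1.45 with RLE factors, 1.45 with DESeq2 and -0.21 with the labels' grouping, and 1.42 to 2.21 with 1 mouse left out. Its tissue difference in controls (-0.19) was 0.19 with RLE, 1.32 with upper-quartile factors, 0.39 with at least 10 counts, 0.047 with each sequence once and 0.78 with the labels' grouping, and -0.36 to 0.044 with 1 mouse left out (0.044 without mouse 4). Over all 6 mice (0.72) it was -0.0063 with total counts, 0.48 without a filter (adjusted p = 0.0772), 0.65 with the labels' grouping (adjusted p = 0.0954), 1.91 with upper-quartile factors (adjusted p = 4.71e-07) and 1.20 with at least 10 counts (adjusted p = 0.00085), and 0.44 to 0.86 with 1 mouse left out.

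SDE miRNAs in colon (55) were 16 with RLE, 8 with upper-quartile factors, 0 with all libraries in 1 fit and 0 with the labels' grouping, and 0 to 44 with 1 mouse left out. SDE miRNAs in blood (0) were 25 without a filter, 10 with DESeq2 and 1 in 1 fit, and 0 to 1 with 1 mouse left out. SDE members of the hypoxia lists in colon (2) were 0 with RLE, upper-quartile factors, at least 10 counts, 1 fit, limma or the labels' grouping, 1 with total counts, and 0 to 2 with 1 mouse left out. In blood (0) they were 2 without a filter.

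With the mouse as replicate block the response difference was 1.82, and the tissue differences were -0.22 and 0.68 for miR-210-3p (edgeR adjusted p = 0.0278 for the latter) and -3.61 and -2.40 for miR-210-5p, in controls and in all mice. The block changed no call.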
